A study of Rattus norvegicus with 42 samples.

Results

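Integrins are the receptors by which leukocytes and platelets hold on to vessel walls, clots and matrix, and they grip only after proteins inside the cell have bound their tails and tied them to the actin skeleton. Talin, encoded by Tln1, and the blood cell kindlin, encoded by Fermt3, switch the receptors on, vinculin (Vcl) and the alpha-actinins (Actn1 and Actn4) join them to actin filaments, scinderin (Scin) cuts and caps those filaments in the presence of calcium, and Fgr is a Src family kinase of myeloid cells that signals from bound integrins. In blood this machinery is known for firm adhesion and spreading of neutrophils, monocytes and platelets. All probe sets annotated with 1 of these 7 genes were taken, which gave 10 of the 31042 probe sets tested: 2 for Actn1, 3 for Vcl and 1 each for Actn4, Tln1, Fermt3, Fgr and Scin.

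The levels were measured in whole blood of 42 male Sprague-Dawley rats weighing 280 to 350 g, on Affymetrix rat genome arrays, with 6 rats in each of 7 groups. The permanent-MCAO+tPA and permanent-MCAO groups had the middle cerebral artery occluded by a suture (MCAO) for 24 hours, and the reperfused-MCAO+tPA and reperfused-MCAO groups for 2 hours before the suture was withdrawn. The 3 tPA groups were given 3.3 mg/kg of recombinant human tissue plasminogen activator into the peritoneum at 3 hours, and the third of them, called tPA, had no MCAO. The anesthesia group had no MCAO and no tPA, the naive group was untreated, and blood was drawn by cardiac puncture at 24 hours under isoflurane. No group had a sham operation, so surgery and ischemia cannot be told apart, and neither the labels nor the methods tell whether rats of the tPA group were anesthetised when treated.

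Values are GC-RMA log2 signals, and they allow one probe set to be compared between groups but not 2 probe sets with each other. A probe set is called below where limma gave a p of at most 0.01 and a fold of at least 1.2, the thresholds the methods set, and the Benjamini-Hochberg adjusted p over all 31042 probe sets stands beside it. Array medians lay between 3.05 and 3.26. The level of the hybridization controls, which are spiked in after labelling, averaged 11.2 ± 0.747 in the tPA group (SD, n = 6) and reached down to 9.72 there, while no array of the other 6 groups was below 11.4. The blood label was borne out by platelet, T cell, B cell, NK and erythroid markers, none of which averaged below log2 4, while 3 of 4 endothelial markers (Tek, Cldn5 and Esam) did, as did Cebpe among 8 neutrophil and Cx3cr1 among 8 monocyte markers.

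The 10 probe sets differed widely in brightness. The means over all arrays were 10.3 for Tln1, 7.83 for Fermt3, 8.86 and 8.82 for the Vcl probe sets 1372905_at and 1375538_at, 9.45 and 5.33 for the Actn1 probe sets 1389189_at and 1398294_at, 6.50 for Actn4, 10.2 for Fgr and 4.41 for Scin. The third Vcl probe set, 1398476_at, averaged 3.36, below the level of 4 under which a probe set is called dim here. Reperfused-MCAO rats had the highest group mean of 6 probe sets (both of Actn1, Tln1, Fermt3, Fgr and the dim one of Vcl), and permanent-MCAO+tPA rats had the highest of the other 4 (Actn4, both bright ones of Vcl, and Scin). The lowest mean belonged to anesthesia rats for Tln1, Fermt3, Fgr and Actn1 1389189_at, to naive rats for Actn4, Actn1 1398294_at and Vcl 1375538_at, and to tPA rats for Scin and the other 2 Vcl probe sets. Groups next to each other in these orders always overlapped in their single values. The gap between neighbours was larger than the SD of both only for Fgr, between reperfused-MCAO and reperfused-MCAO+tPA, and for Actn1 1389189_at, between permanent-MCAO+tPA and permanent-MCAO and between reperfused-MCAO+tPA and naive.

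**Figure D1:**
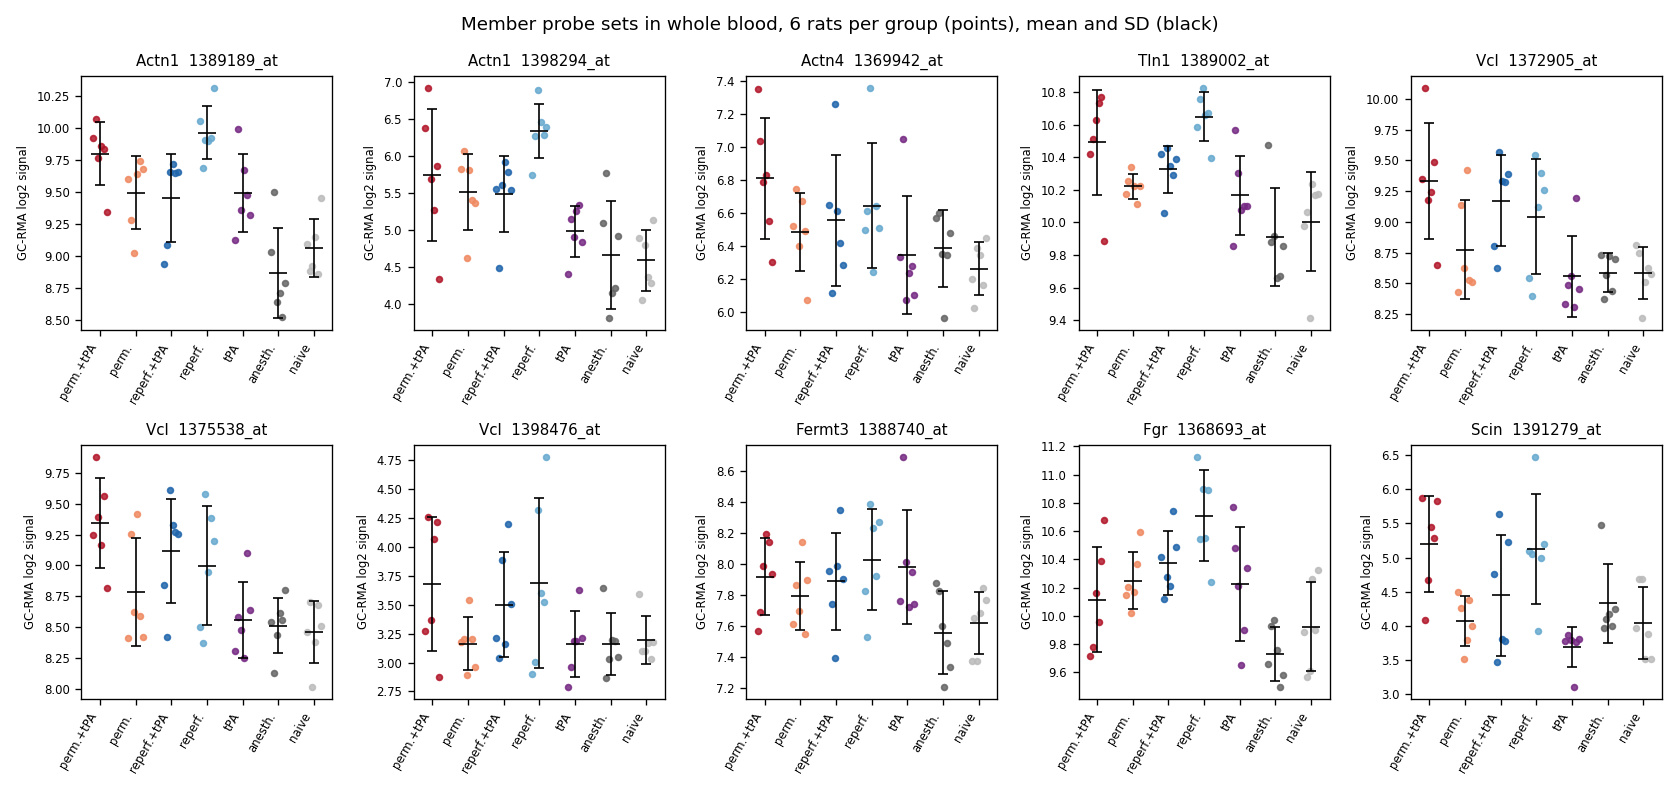
GC-RMA log2 signal (y axes, a different range in each panel) of the 10 probe sets in 7 groups, with a point for each of 6 rats and black bars for mean and SD. All reperfused-MCAO rats lie above all anesthesia rats for Fgr and for Actn1 1389189_at, and Scin is highest on average in permanent-MCAO+tPA and reperfused-MCAO rats.

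The first question was how these genes differed after MCAO without tPA, surgery included. The clearest differences were those of the reperfused-MCAO rats set against anesthesia. The integrin activator Tln1, both probe sets of the linker Actn1 and the kinase Fgr rose, by 1.67-fold to 3.20-fold, and no probe set of the 10 fell. These were 4 of 10 called, where 6% of all probe sets were called in either direction and 4.09% were called higher. All 4 also passed after adjustment, which 2.11% of all probe sets did. Fgr and Actn1 1389189_at still did so in all 12 fits without 1 rat, Tln1 in 7 (not without anesthesia replicate 4, 5 or 6 or reperfused-MCAO replicate 3 or 5) and Actn1 1398294_at in 6 (not without the same rats or without anesthesia replicate 3). With the hybridization control level as a covariate Tln1 and Actn1 1398294_at did not pass adjustment. With the replicate number of the labels as a block none of the 4 passed it (adjusted p between 0.0554 and 0.126, limma). The median difference of the 10 was 0.63 on the log2 scale, beside -0.02 over all probe sets. In whole blood, more cells that carry a transcript and more transcript per cell cannot be told apart.

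Tln1 signal ran from 10.39 over a median of 10.66 to 10.83 in reperfused-MCAO rats, against 9.66, 9.87 and 10.48 for the lowest, median and highest anesthesia rat. In 5 of 6 reperfused-MCAO rats talin was above every anesthesia rat, and the overlap came from anesthesia replicate 1 alone, which stood apart from its group. The difference was 0.74 ± 0.13 log2 (SE, adjusted p = 0.0218, limma).

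Fgr signal had its lowest, median and highest values at 10.24, 10.72 and 11.13 in reperfused-MCAO rats, against 9.49, 9.71 and 9.97 in anesthesia rats. The groups did not overlap, though naive rats, at 9.57 to 10.32, overlapped with reperfused-MCAO rats. This kinase rose by 0.98 ± 0.15 log2 (SE, adjusted p = 0.014, limma), and the exact two-sided permutation p of 0.00216 was the smallest that 924 divisions of 12 rats can give.

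Actn1, the alpha-actinin of focal contacts, rose in both of its probe sets. The brighter, 1389189_at, had a lowest value of 9.69, a median of 9.91 and a highest value of 10.32 in reperfused-MCAO rats, against 8.53, 8.75 and 9.50 in anesthesia rats. Its groups did not overlap either, and it rose by 1.10 ± 0.16 log2 (SE, adjusted p = 0.0135, limma). The dimmer, 1398294_at, lay at 5.74, 6.33 and 6.88 in reperfused-MCAO rats, against 3.81, 4.57 and 5.76 in anesthesia rats. Here 5 of 6 reperfused-MCAO rats were above all anesthesia rats, and the difference was 1.68 ± 0.32 log2 (SE, adjusted p = 0.0256, limma). Both probe sets that did not overlap were higher after MCAO, as were 1.54% of all probe sets without overlap between these groups.

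The other 6 probe sets had positive differences that did not pass. Kindlin's Fermt3 differed by 0.47 ± 0.17 log2 (SE, adjusted p = 0.201), with values of 7.53 to 8.39 in reperfused-MCAO rats, against 7.20 to 7.88 in anesthesia rats. The 2 bright Vcl probe sets differed by 0.45 ± 0.19 and 0.49 ± 0.21 log2, with adjusted p values of 0.285 and 0.288. Scin differed by 0.80 ± 0.39 log2 (adjusted p = 0.333), and its reperfused-MCAO values were widely spread, between 3.93 and 6.48. Actn4, the alpha-actinin made in most tissues, had a difference of 0.26 ± 0.17 log2 (adjusted p = 0.427), with 3 of 6 reperfused-MCAO rats above all anesthesia rats and replicate 3 apart from the rest of its group. All adjusted p values are from limma. Without reperfused-MCAO replicate 2, the lowest rat of its group in 4 of the 10 probe sets, the count of called probe sets was 7 of 10. The share of all probe sets called in that fit is not given.

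Markers of myeloid cells were higher in the same rats. Of 8 neutrophil markers 2 rose (Csf3r, the receptor for granulocyte colony-stimulating factor, by 1.68 log2, and the chemokine receptor Cxcr2 by 1.77 log2), and the median of the list was 0.68, but the granule protein genes Lcn2 (-1.06 log2) and Camp (-0.85 log2) had negative differences that were not called. The summed neutrophil signal lay between 13.92 and 15.42 log2 in reperfused-MCAO rats, against 13.48 to 14.36 in anesthesia rats. Of 8 monocyte markers 3 rose (Lyz2, Ctss and Cd68) and 7 had positive differences, all but Adgre1 (-0.22 log2). Their summed signals were 14.72 to 14.91 log2 in reperfused-MCAO rats, against 14.32 to 14.59 in anesthesia rats, without overlap. A summed signal adds unlogged values, so the brightest marker, Lyz2 (mean 14.4 log2), weighs most in it. The mean log2 signal of the 8 monocyte markers did overlap, at 8.66 to 9.18 in reperfused-MCAO rats, against 8.27 to 8.76 in anesthesia rats. Of 8 platelet markers 8 had positive differences (median 0.41 log2) and 1 rose (Tubb1, the platelet tubulin, by 0.55 log2). Their summed signals were 14.67 to 15.47 log2 against 14.63 to 15.09. Of 5 NK and cytotoxic cell markers 3 rose as well. Erythroid markers went the other way, with 4 of 4 negative, 1 called lower (Slc4a1, the red cell anion exchanger, -0.54 log2), 3 of 4 at p under 0.05 and a median of -0.33. Of the 7 T cell markers 0 had positive differences (median -0.19 log2), as had 0 of 4 B cell markers (median -0.24 log2). None of either list was called, and 0 had p under 0.05. The part of these markers in the rise of Tln1, Fgr and Actn1 was not tested.

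The bases just before the RefSeq gene start are printed for the 3 genes that rose together and for Vcl, whose probe sets did not pass, since they are the genes this comparison turns on. Promoter windows (GRCr8 assembly) were given for 6 of the 7 genes, all but Actn4. Each was set to hold 250 bases before a start and 50 after it. Bases of the window inside the annotated gene numbered 50 for Tln1, 190 for Actn1, 141 for Vcl and 80 for Fgr. The windows of Actn1, Vcl and Fgr were therefore not placed at the annotated gene start, and less of them lies before it. The lines below hold the part of each window that lies outside the annotated gene, 5′ to 3′ on the gene's strand. They are chr6:104826313-104826422 on the minus strand for Actn1, chr5:62613688-62613937 on the minus strand for Tln1, chr5:150473547-150473766 on the plus strand for Fgr and chr15:3404892-3405050 on the minus strand for Vcl. Capitals mark GGGCGG, the GC box, read on either strand.
Actn1: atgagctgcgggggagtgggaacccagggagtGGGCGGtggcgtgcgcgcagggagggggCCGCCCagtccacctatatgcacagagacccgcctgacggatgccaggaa
Tln1: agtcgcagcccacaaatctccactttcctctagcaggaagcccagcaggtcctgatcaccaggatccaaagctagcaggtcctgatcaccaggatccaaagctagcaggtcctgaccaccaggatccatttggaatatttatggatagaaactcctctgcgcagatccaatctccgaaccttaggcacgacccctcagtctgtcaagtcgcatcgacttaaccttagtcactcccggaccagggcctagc
Fgr: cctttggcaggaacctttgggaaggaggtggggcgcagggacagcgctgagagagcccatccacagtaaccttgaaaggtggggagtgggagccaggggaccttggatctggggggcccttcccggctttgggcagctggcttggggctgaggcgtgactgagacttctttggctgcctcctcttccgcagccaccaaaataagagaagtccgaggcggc
Vcl: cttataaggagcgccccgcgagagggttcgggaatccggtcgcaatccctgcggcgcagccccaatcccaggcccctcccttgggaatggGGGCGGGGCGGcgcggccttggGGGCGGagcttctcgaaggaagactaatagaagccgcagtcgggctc

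A GC box stood in the 300-base window of 4 of the 6 genes (Actn1, Vcl, Fermt3 and Fgr) and in 33.1% of all 33469 windows, and where copies overlap, as in Vcl, the capitals run on. In the stretches printed there are 2 copies for Actn1 and 3 for Vcl, and the copy of Fgr lies in the part of its window inside the gene. The letters GAGGAAG, searched on both strands as a core bound by myeloid ETS factors, were in 12.4% of all windows and in 0 of the 6, and the CArG box of serum response factor was in 1.64% of all windows and in 0 of the 6. The Tln1 stretch holds a tandem repeat, in which the longest run found more than once in the same direction was 42 bases, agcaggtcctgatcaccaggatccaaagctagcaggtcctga. In the other 3 stretches the longest such run was 8 or 9 bases. These matches describe the letters of the reference and no binding was measured.

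Fewer probe sets were called after permanent occlusion. Set against the same anesthesia rats, permanent-MCAO rats had higher Fgr and Actn1, by 1.43-fold and 1.55-fold, and nothing else of the 10 was called. Of all probe sets 2.78% were called and 1.77% called higher. Neither gene passed after adjustment, and only 45 of all probe sets (0.145%) did. The median of the 10 was 0.26 log2, beside 0.00 over all probe sets. Neutrophil markers moved along in part, with 2 of 8 called higher, 5 of 8 positive and a list median of 0.38 log2. Lcn2 (-1.77 log2, unadjusted p = 0.0295) and Camp (-0.84 log2) were negative and not called, and 1 of 8 monocyte markers was called higher. Their summed signals lay at 13.81 to 14.75 log2 (neutrophil) and 14.57 to 14.86 log2 (monocyte) in permanent-MCAO rats, against 13.48 to 14.36 and 14.32 to 14.59 in anesthesia rats, and their part in the result was not tested.

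Fgr was measured at 10.02, 10.19 and 10.59 (lowest, median, highest) in permanent-MCAO rats, against 9.49, 9.71 and 9.97 in anesthesia rats. Naive rats, at 9.57 to 10.32, overlapped with permanent-MCAO rats. Against anesthesia every stroke rat was again above every control, a separation found higher in 0.619% of all probe sets. The difference was 0.52 ± 0.11 log2 (SE, adjusted p = 0.102, limma; exact permutation p = 0.00216).

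For Actn1 1389189_at the values were 9.02, 9.62 and 9.74 in permanent-MCAO rats, against 8.53, 8.75 and 9.50 in anesthesia rats. The groups overlapped, with 4 of 6 permanent-MCAO rats above all controls, and the difference was 0.63 ± 0.18 log2 (SE, adjusted p = 0.246, limma). This call was lost in 7 of 12 fits that left out 1 rat, those without anesthesia replicate 3, 4 or 5 or permanent-MCAO replicate 1, 4, 5 or 6, with differences of 0.56 to 0.75 over all 12. The second Actn1 probe set differed by 0.86 ± 0.35 log2 and Tln1 by 0.31 ± 0.12 log2, neither of which passed (adjusted p = 0.552 and 0.514). Scin had the only negative difference, -0.26 ± 0.27 log2. Beside it, the difference of Scin between reperfused-MCAO and these anesthesia rats was 0.80. Whether reperfused and permanent occlusion differed in these genes was not tested directly, and both comparisons share the anesthesia rats.

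**Figure D2:**
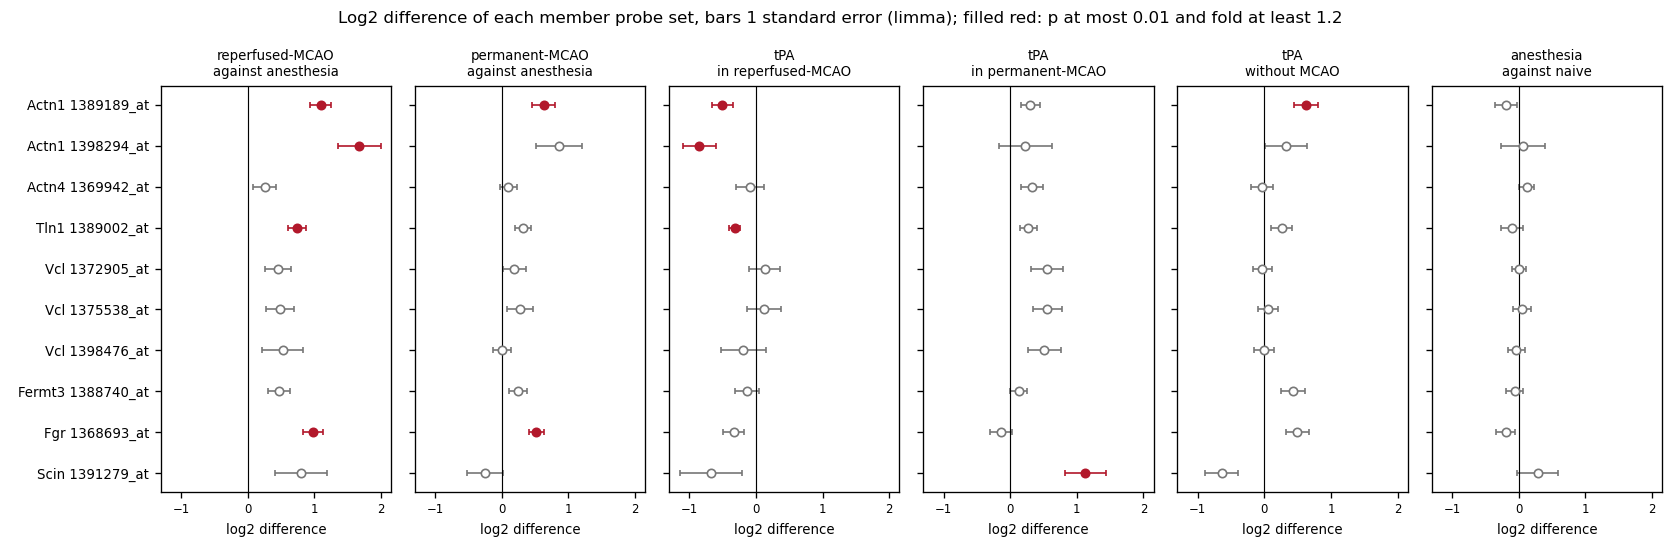
Log2 difference (x axis) of each of the 10 probe sets (rows) in 6 comparisons (panels), with bars of 1 standard error from limma and filled red points for probe sets with p at most 0.01 and fold at least 1.2. The 10 points lie right of 0 in reperfused-MCAO against anesthesia, and 8 of 10 lie left of 0 for tPA in reperfused-MCAO.

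Treatment was the next question. In rats with reperfused-MCAO, those given tPA had lower Actn1, in both probe sets, and lower Tln1, by 1.25-fold to 1.81-fold. These were 3 of 10 called, all lower, where 0.722% of all probe sets were called and 0.438% called lower. No probe set of the whole array passed after adjustment by limma, in which 2481 had an unadjusted p under 0.05, the same 3 of the 10 among them. The reperfused-MCAO rats serve as the controls here and as the MCAO group in the comparison with anesthesia, so a high value in them counts in both. The median of the 10 was -0.25 log2, beside 0.02 over all probe sets.

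Tln1 stood at 10.06, 10.37 and 10.46 (lowest, median, highest) in reperfused-MCAO+tPA rats, against 10.39, 10.66 and 10.83 in reperfused-MCAO rats. The ranges met only at their edges, and talin fell by 0.32 ± 0.08 log2 (SE, adjusted p = 0.542, limma; exact permutation p = 0.00649). The call held without each rat in turn and was lost when the spread was taken over all 42 arrays or when dim probe sets were left out of the fit.

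Actn1 1389189_at stood at 8.94, 9.66 and 9.72 in reperfused-MCAO+tPA rats, against 9.69, 9.91 and 10.32 in reperfused-MCAO rats. The treated rats fell into 4 close to the lowest untreated rat and 2 well below it, and the difference was -0.51 ± 0.16 log2 (SE, adjusted p = 0.542, limma; exact permutation p = 0.00433). Without 1 rat the call was lost in 7 of 12 fits (reperfused-MCAO replicate 1, 3, 4, 5 or 6, reperfused-MCAO+tPA replicate 1 or 2), with differences between -0.57 and -0.41. For 1398294_at the values were 4.49, 5.58 and 5.91 in reperfused-MCAO+tPA rats, against 5.74, 6.33 and 6.88 in reperfused-MCAO rats. This probe set fell by 0.85 ± 0.25 log2 (SE, adjusted p = 0.542, limma), and its call was lost without reperfused-MCAO replicate 3, 4 or 6. Without any of these 3 rats only 1 of the 10 probe sets was called, and the share of all probe sets in those fits is not given.

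Fgr differed by -0.33 ± 0.15 log2 and Scin by -0.68 ± 0.47 log2, neither called (adjusted p = 0.542 and 0.563, limma). The bright Vcl probe sets were the only members with positive values, 0.13 ± 0.23 and 0.12 ± 0.25 log2, and the differences of Fermt3, Actn4 and dim Vcl lay between -0.19 and -0.09. None of the marker lists had a called gene. The neutrophil list had a median of -0.35 log2 and 7 of 8 negative differences, with 0 of 8 at p under 0.05, the monocyte list -0.19 and the platelet list -0.13. Summed neutrophil signal was 13.94 to 14.79 log2 in reperfused-MCAO+tPA rats, against 13.92 to 15.42 in reperfused-MCAO rats, and the part of any of these lists in the lower Tln1 and Actn1 was not tested.

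In rats with permanent-MCAO, the one member that rose with tPA was Scin, the calcium-dependent filament cutter. This was 1 of 10, where 0.322% of all probe sets were called and 0.18% called higher, and again no probe set passed after adjustment, in which 717 of all probe sets and 3 of the 10 had an unadjusted p under 0.05. Scin lay at 4.09, 5.37 and 5.87 (lowest, median, highest) in permanent-MCAO+tPA rats, against 3.52, 4.13 and 4.49 in permanent-MCAO rats. Of the treated rats 5 of 6 were above every untreated rat, and the fold was 2.18 (difference 1.13 ± 0.31 log2, SE, adjusted p = 1, limma; exact permutation p = 0.0108). The untreated rats lay near the level of 4 called dim.

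Vcl was the next highest. The probe set 1372905_at lay at 8.65, 9.29 and 10.09 in permanent-MCAO+tPA rats, against 8.43, 8.58 and 9.42 in permanent-MCAO rats, and overlapped. Both bright Vcl probe sets differed by 0.56 log2 (SE 0.24 and 0.22) with unadjusted p values of 0.0415 and 0.0291, short of the threshold. The differences of Actn1 (0.30 and 0.23), Actn4 (0.33), Tln1 (0.27) and Fermt3 (0.12) were positive and that of Fgr was -0.14, none of them called. The median of the 10 was 0.31 log2, beside 0.00 over all probe sets. The count was 3 without permanent-MCAO+tPA replicate 6, the lowest rat of its group in 7 of 10 probe sets and the highest for Fgr. It was 2 without permanent-MCAO replicate 4, the highest of its group in 4. The share of all probe sets called in these fits is not given. No marker list had a called gene here either. The platelet list had a median of 0.17 log2 with 7 of 8 positive, the NK and cytotoxic list 0.43 with 5 of 5 positive and 1 of 5 at p under 0.05, and their part in the Scin value was not tested.

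The tPA effects in the 2 kinds of occlusion were set against each other directly, as the effect in reperfused-MCAO minus the effect in permanent-MCAO. The difference was negative for all 10 probe sets, with a median of -0.51 log2, beside 0.01 over all probe sets. It was called for Actn1 1389189_at (-0.81 ± 0.22), Tln1 (-0.59 ± 0.16) and Scin (-1.80 ± 0.57), each in log2 with SE. That is 3 of 10, where 0.296% of all probe sets were called, but the adjusted p was 0.978 for each of the 10 and for no probe set on the array was it smaller. The second Actn1 probe set (-1.08 ± 0.48) and the bright Vcl probe sets (-0.43 ± 0.34 and -0.44 ± 0.34) were not called. The platelet markers had a median of -0.37 log2 in the same contrast, 0 of 8 positive and 0 called. The NK and cytotoxic markers had a median of -0.57 log2, with 1 of 5 positive, 0 called and 1 of 5 at p under 0.05, and the B cell markers one of 0.47 log2, with 4 of 4 positive and 0 at p under 0.05. The part of these lists was not tested.

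Without MCAO, tPA went with higher Actn1 in 1 of its 2 probe sets. Actn1 1389189_at lay at 9.13, 9.42 and 9.99 (lowest, median, highest) in tPA rats, against 8.53, 8.75 and 9.50 in anesthesia rats. The groups overlapped, with 2 of 6 tPA rats above all anesthesia rats, and the difference was 0.63 ± 0.18 log2 (SE, adjusted p = 0.0477, limma), among the 12.5% of all probe sets that passed adjustment. This was 1 of 10, in a comparison where 13.7% of all probe sets were called and 9.15% called higher, so members were called no more often than probe sets in general. The adjusted pass of Actn1 1389189_at held in 6 of 10 alternative fits and in 3 of 12 fits without 1 rat. It was lost with each array's median centred, with quantile scaling, by the methods' test and with the hybridization control level as a covariate. The second Actn1 probe set differed by 0.32 ± 0.31 log2 and was not called. Fgr (0.49 ± 0.17), Fermt3 (0.42 ± 0.18) and Tln1 (0.26 ± 0.15) had positive values that did not pass.

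The filament cutter Scin had its lowest group mean in tPA rats. It lay at 3.10, 3.79 and 3.87, against 3.97, 4.14 and 5.48 in anesthesia rats, and the 2 groups did not overlap, as was so lower for 2.86% of all probe sets. The difference of -0.64 ± 0.25 log2 did not pass (adjusted p = 0.111, limma; exact permutation p = 0.00216), and most of these values are dim.

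The blood and the arrays of the tPA group differed in other ways. All 7 T cell markers rose in tPA rats (list median 0.78 log2), 3 of 8 platelet and 2 of 4 erythroid markers fell, and the myeloid genes Lyz2 (0.31 log2, adjusted p = 0.00694), Ctss (0.53, adjusted p = 0.00964) and Csf3r (0.84, adjusted p = 0.0184) rose by limma. All 8 monocyte markers had positive differences, 2 of them called. Of 8 neutrophil markers only Csf3r was called and 6 were positive, with a list median of 0.06 log2. Camp (-0.45 log2) and Mmp8 (-0.17 log2) were negative. The hybridization control level was the lowest of all groups. Summed signals in tPA rats, against anesthesia rats, were 14.25 to 14.70 against 13.34 to 13.89 log2 for T cells, 14.37 to 15.01 against 14.63 to 15.09 log2 for platelets and 14.20 to 15.13 against 15.30 to 15.53 log2 for erythroid cells. With the control level as a covariate Actn1 1389189_at differed by 0.33 log2 and was not called. The call was also lost in 7 of 12 fits without 1 rat, those without anesthesia replicate 3, 4, 5 or 6 or tPA replicate 2, 4 or 5. Among probe sets of at least log2 4 the median difference of this comparison was 0.24, beside -0.01 over all. The part of cell makeup and of array level in the Actn1 value was not tested.

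**Figure D3:**
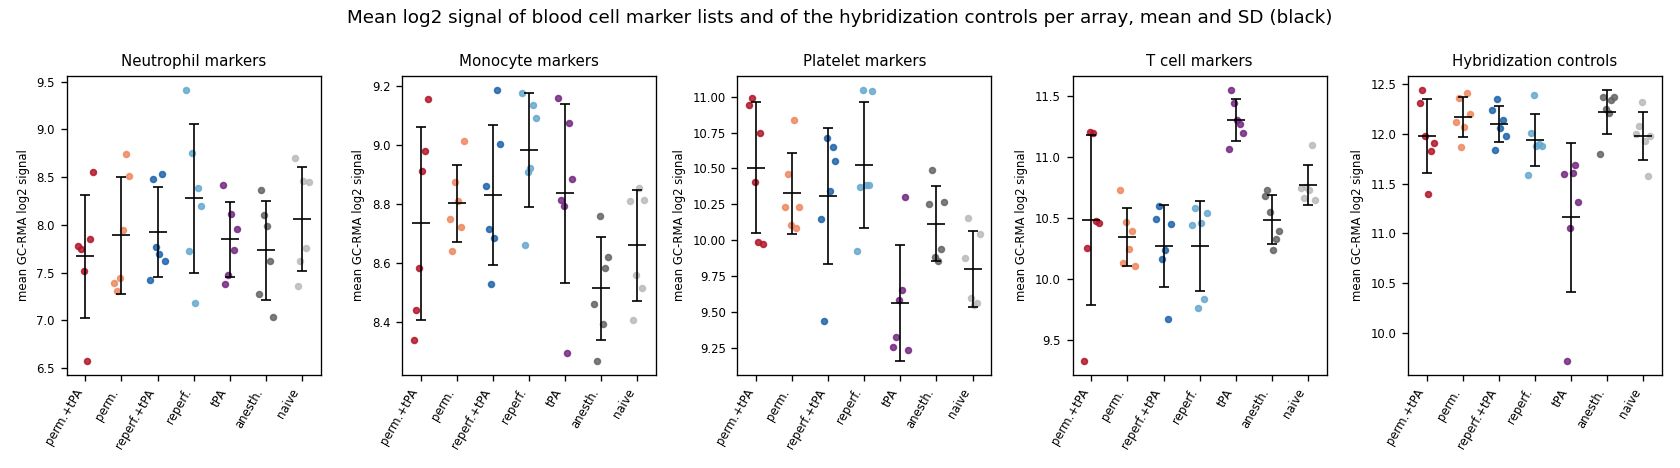
Mean GC-RMA log2 signal (y axes, a different range in each panel) of the measured neutrophil, monocyte, platelet and T cell markers and of the hybridization controls, with a point for each rat in 7 groups and black bars for mean and SD. The tPA group has the highest T cell and the lowest control levels, and reperfused-MCAO rats the highest monocyte mean.

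A model over all 42 arrays, with terms for tPA, any MCAO, anesthesia and tPA by MCAO, averaged the stroke effect over rats with and without tPA. The thresholds the methods give for it are p of at most 0.05 and a fold of at least 1.2. At these, 8 of 10 probe sets were higher with MCAO, its surgery included. Of all probe sets 15.4% were called and 6.02% called higher. Of the 10, 6 passed after adjustment, as did 7.86% of all probe sets: Tln1 (0.38 ± 0.09), the bright Vcl probe sets (0.51 ± 0.13 and 0.53 ± 0.13), both of Actn1 (0.50 ± 0.11 and 0.95 ± 0.21) and Fgr (0.38 ± 0.11), all in log2 with SE and adjusted p values between 0.0045 and 0.0312 from limma. None of the 6 passed adjustment when the tPA group was coded as not anesthetised. With the hybridization control level as a covariate the bright Vcl probe sets did not pass, and with quantile scaling Fgr did not. Without 1 array Fgr passed in 37 of 42 fits, and the others in all 42. Vinculin was called in this model though in neither comparison of an MCAO group with anesthesia. Scin (0.70 ± 0.25) and the dim Vcl probe set (0.35 ± 0.16) were called without passing adjustment, and Fermt3 (0.14 ± 0.10) and Actn4 (0.26 ± 0.11) were not called. Since this average includes the tPA group as a control, it was fitted again without that group, an alternative chosen after the data were seen. Then 6 of 10 were called: Actn1 at 0.86 and 1.27, Fgr at 0.75 and Tln1 at 0.52 log2 were higher than before, Vcl 1375538_at stayed called at 0.38, and Vcl 1372905_at at 0.32, the dim Vcl probe set at 0.26 and Scin at 0.27 log2 were lost. Fermt3, at 0.35 log2, was called in addition. The 2 bright Vcl probe sets, which had passed adjustment before, did not pass in this fit. Over the 11 alternative fits of this effect, this one among them, the share of all probe sets called ran from 3.46% to 31.6%. The share in this fit alone is not given here, so its count of 6 cannot be set against the whole array.

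Averaged over rats with and without MCAO, tPA had no called member by limma, nor by the methods' test, where 12% of all probe sets were called and 2 of 10 had an unadjusted p under 0.05. Actn1 1389189_at fell just short of the fold threshold, at 1.198-fold higher (unadjusted p = 0.0263, adjusted p = 0.192, limma). Without 1 array the count stayed at 0 in 29 of 42 fits and was 1 in the others. The interaction, the tPA effect with MCAO minus that without, was called for 3 of 10, all negative, where 21% of all probe sets were called and 14.4% called lower. They were Actn1 1389189_at (-0.73 ± 0.23, adjusted p = 0.0366), Fgr (-0.73 ± 0.23, adjusted p = 0.0389) and Fermt3 (-0.43 ± 0.20, adjusted p = 0.141), in log2 with SE from limma, and 9.47% of all probe sets passed adjustment. With the hybridization control level as a covariate none of the 3 was called and Fermt3 changed sign, to 0.021. Neither Actn1 1389189_at nor Fgr passed adjustment with that covariate, with the tPA group coded as not anesthetised or with the replicate number as a block. With the block their adjusted p values were 0.0517 and 0.0516 (limma). Without 1 rat, Actn1 1389189_at passed in 35 and Fgr in 30 of 42 fits. The call of Fermt3 was lost in 5 and turned in 1 of 10 alternatives, and lost in 9 of 42 fits without 1 rat: tPA replicate 2 (value -0.29), anesthesia replicate 4, 5 or 6, reperfused-MCAO replicate 3, 4 or 6, permanent-MCAO+tPA replicate 1 or reperfused-MCAO+tPA replicate 3.

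Anesthesia was also set against no treatment. In anesthesia rats against naive rats no probe set of the 10 was called by limma or by the methods' test, 0 of 10 had an unadjusted p under 0.05, and 0.821% of all probe sets were called. Differences ran from -0.19 for Actn1 1389189_at and Fgr to 0.29 for Scin. Tln1, for example, lay at 9.66, 9.87 and 10.48 in anesthesia rats, against 9.41, 10.12 and 10.23 in naive rats.

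The 2 probe sets of Actn1 were then compared with each other. One was designed on an expressed sequence tag (1389189_at) and the other on the RefSeq mRNA (1398294_at), and their log2 deviations from the group means went together over the 42 rats, with r = 0.65 (permutation p = 3e-05) and rho = 0.57 (permutation p = 0.00022), adjusted over the 45 pairs of member probe sets to 0.00045 and 0.00248. Leaving out the 2 rats farthest from the median gave 0.65, and leaving out the tPA group gave 0.66. Within single groups of 6, r ranged from -0.14 to 0.92. The larger change of the dimmer probe set in reperfused-MCAO against anesthesia (1.68 log2, against 1.10 for the brighter, a difference of -0.58) had an exact permutation p of 0.0455 and an adjusted p of 0.273 over 6 comparisons, and in none of the 6 comparisons did the effects of the 2 probe sets differ after adjustment.

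Vcl gave a closer pair. Its 2 bright probe sets had r = 0.94 (rho = 0.92, both permutation p = 1e-05, the smallest that 100000 permutations give), and their effects were within 0.09 log2 of each other in all 6 comparisons. The dim probe set of Vcl followed them with r = 0.71 and 0.64. Probe sets of a gene share the arrays and are not replicates.

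**Figure D4:**
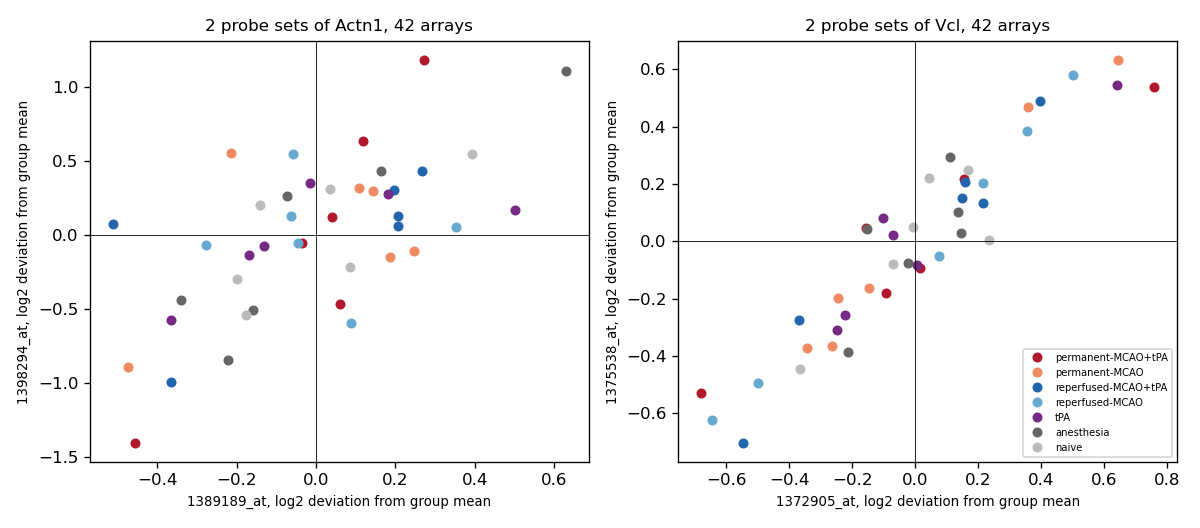
Deviation of each rat from its group mean in log2 for 2 probe sets of Actn1 (left) and 2 of Vcl (right), the brighter on the x axis, with 42 points coloured by group. The Actn1 points scatter around a rising line (r = 0.65) and the Vcl points lie close to one (r = 0.94).

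Probe sets of different genes made 41 pairs, of which 5 passed after adjustment, 3 of them by rho as well. The dimmer Actn1 probe set, 1398294_at, was in 4 of the 5. It went with Actn4 at r = 0.56 (adjusted permutation p = 0.00324, rho = 0.63) and with Vcl 1372905_at at r = 0.52 (adjusted permutation p = 0.0072, rho = 0.47), values of 0.50 and 0.36 without the 2 rats farthest from the median. With the other Vcl probe sets r was 0.43 and 0.44, which rho did not bear out (adjusted p = 0.0961 for both). Among the 21 pairs of the brightest probe sets per gene, r lay between -0.23 and 0.44, and after adjustment 1 passed, Tln1 with Fermt3, the integrin activators (r = 0.44, permutation p = 0.00518, adjusted 0.0314; rho = 0.49, adjusted 0.0118). Without the 2 rats farthest from the median the r of that pair was 0.48, and without the tPA group 0.33.

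The genes most like each member, by r within groups over the 42 rats among about 10145 bright probe sets of other named genes, were different for each. For Tln1 they were the spectrin Sptan1 (0.78), the repressor Cic (0.77) and the nonmuscle myosin Myh9 (0.75). For Fermt3 they were the actin Actg1 (0.82), the integrin-linked kinase Ilk (0.75) and Ldha (0.70). For Fgr they were Nfam1 (0.84), Ralb (0.84) and Hsd17b11 (0.82). Vcl was closest to Fgl2 (0.78), Me1 (0.78) and Prtfdc1 (0.76), and Actn4 to Abcc4 (0.77), the coagulation factor F5 (0.68) and Vipr2 (0.67). For Scin they were Klrg1 (0.66), a receptor of NK and T cells, Dtx1 (0.59) and Mpped2 (0.57), and for Actn1 Yipf3 (0.62), Fam241a (0.60) and Xpo5 (0.58). These values are descriptions, chosen as the highest of many.

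Other genes of the same machinery were read from 4 lists. In reperfused-MCAO rats against anesthesia, 4 of 26 measured adaptors and activators rose and 1 fell, 4 of 14 kinases rose, 6 of 27 actins and actin-binding proteins rose and 3 of 11 integrins rose, set beside 4.09% over the whole array. Zyx (zyxin, which recruits VASP to filaments) rose by 1.09 ± 0.18 log2 (adjusted p = 0.0153), Pxn (paxillin, a scaffold of adhesion sites) by 0.67 ± 0.11 (adjusted p = 0.0152) and Apbb1ip (the Rap effector that brings talin to integrins) by 0.58 ± 0.13 (adjusted p = 0.0533). Among the kinases Pak1 rose by 1.12 ± 0.17, Lyn, a Src family relative of Fgr, by 0.99 ± 0.19 and Syk by 0.70 ± 0.16, all with adjusted p values under that of Apbb1ip. The actin scaffold Iqgap1 rose by 0.76 ± 0.14 (adjusted p = 0.0224, limma), the capping protein Capg by 0.49 ± 0.10 (adjusted p = 0.0277) and Actg1 by 0.48 ± 0.11 (adjusted p = 0.0596). The fibronectin receptor chain Itga5 rose by 1.58 ± 0.25 (adjusted p = 0.015, limma), Itgb7 by 0.63 ± 0.14 (adjusted p = 0.0516) and the platelet chain Itgb3 by 0.68 ± 0.16 (adjusted p = 0.0554). Apbb1ip, Actg1, Itgb7 and Itgb3 were called without passing adjustment. The list medians were 0.10 for adaptors, 0.14 for kinases, 0.13 for actin-binding proteins and 0.36 for integrins, all log2, beside -0.02 over all probe sets.

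In permanent-MCAO rats against anesthesia, where 2.78% of all probe sets were called and 1.77% called higher, the same lists had 2 adaptors called higher (Zyx 0.73 and Pxn 0.39) and 1 lower (Rap1a -0.51), 1 kinase higher (Lyn 0.70) and 1 lower (Fyn -0.34), 0 actin-binding proteins and 1 integrin (Itga5 1.06), none of which passed after adjustment. With tPA in reperfused-MCAO no gene of the 4 lists was called by limma, and 2 of 26, 1 of 14, 2 of 27 and 1 of 11 had an unadjusted p under 0.05. With tPA in permanent-MCAO none was called either, and the counts at an unadjusted p under 0.05 were 0, 0, 1 and 0. In tPA rats without MCAO against anesthesia, beside 13.7% called and 9.15% called higher over the array, 5 adaptors (Pxn 0.47, Rasgrp2 0.78 and Vasp 0.35 among them), 3 kinases (Fyn 0.47, Csk 0.37 and Ptk2b 0.44), 8 actin-binding proteins (with Coro1a 0.65, Lcp1 0.87 and Msn 0.33) and 1 integrin (Itgal 0.63) rose, while 3 adaptors and 1 integrin (Itga2b -0.67) fell.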

How the data were processed

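RNA of whole blood collected in PAXgene tubes was amplified and labelled with a whole blood kit and hybridized to 42 arrays, 1 per rat. The deposited values are log2 signals that the authors made from the scans by GC-RMA within Partek; the scans were not used here. GC-RMA pulls signals near background together, which shrinks differences of dim probe sets. The 57 control probe sets were set aside and 31042 tested. Gene symbols come from the platform annotation, in which 20826 probe sets have 1 symbol, 436 several and 9780 none, and 13232 averaged at least log2 4. Probe sequences were not examined, so signal shared between related genes, such as the 2 alpha-actinins, was not checked.

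Groups of 6 against 6 were compared with limma 3.58.1 in R 4.3.3 (statmod 1.5.0) on the 12 arrays of each comparison, the difference of tPA effects on 24 arrays and the averaged terms on all 42. Calls used p of at most 0.01 (0.05 for the averaged terms) with a fold of at least 1.2, and p-values were adjusted over all probe sets by Benjamini-Hochberg. Exact two-sided p values came from all 924 divisions of 12 rats, and correlations from 100000 permutations within groups (Python 3.11.15, numpy 2.4.6, pandas 2.3.3, scipy 1.17.1, figures with matplotlib 3.10.9). The fits were tested on simulated data. The number of arrays limits the precision.

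The genes and the lists were chosen with earlier results of these data known. Each list gene is represented by its probe set of highest mean, and named are the 3 called genes with the smallest p per list and comparison. Fermt1 and Arhgef6 (adaptors), Cfl1, Dstn and Actb (actin-binding) and Itga2 and Itga4 (integrins) were not analysed here for want of a probe set with only that symbol, and some other list genes are not reported here. Alternatives were other scalings, an intensity trend, array weights, removal of dim probe sets, the methods' test without shared variances, a block for the replicate number, the hybridization control level as a covariate, a shared spread, another coding of anesthesia, a fold of 1.5 and omission of each array. Single arrays were not omitted for the difference of tPA effects. Promoter windows are from RefSeq (GRCr8).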

Additional observations from a re-analysis of the deposited data

Results flagged for a closer look

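In 10 of 70 groups of 6 rats, 1 rat stood apart from the others, its gap to the nearest of them being past Dixon's 95% value. Chance gives that in about 1 of 20 groups. The rats above their group were anesthesia replicate 1 for Tln1 (10.5, the next at 9.92) and for Scin (5.48, the next at 4.25), tPA replicate 2 for Actn4 (7.04) and for Fermt3 (8.70), tPA replicate 5 for Vcl 1372905_at (9.20), reperfused-MCAO replicate 3 for Actn4 (7.36) and naive replicate 1 for dim Vcl 1398476_at (3.60). The rats below their group were reperfused-MCAO+tPA replicate 2 for Actn1 1398294_at (4.49, the next at 5.54), naive replicate 3 for Tln1 (9.41) and tPA replicate 4 for Scin (3.10). Reperfused-MCAO+tPA replicate 2 was the lowest of its group in 8 of the 10 probe sets, and reperfused-MCAO replicate 3 the highest of its group in 7.

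The tPA effect differed between reperfused-MCAO and permanent-MCAO, by a test of the difference itself, for Actn1 1389189_at (-0.81 log2), Tln1 (-0.59) and Scin (-1.80), none of which passed adjustment over all probe sets (adjusted p = 0.978, limma). The tPA effect differed between rats with and without MCAO for Actn1 1389189_at (-0.73 log2), Fgr (-0.73) and Fermt3 (-0.43). The hybridization control level was lowest in the tPA group, which enters all 3 of these values, and its part was not tested beyond the fit with it as a covariate, in which none of the 3 was called.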

How the results depend on the processing

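Over 25 called values of single probe sets and 257 alternative fits of them, 225 kept the call, 31 lost it and 1 turned sign. Leaving out 1 array at a time (594 fits), 40 lost it. Fits without 1 array were not run for the difference of tPA effects, so its 3 called values were not put to this. Sign changes of values that were not called numbered 25. The sign change was Fermt3 in the interaction, 0.021 with the hybridization control level as a covariate. With that covariate the counts of called members were 0 for the interaction (3 in the main model), 0 for tPA without MCAO (1) and 5 for the difference of tPA effects (3). A fold of 1.5 left 2 for the averaged stroke effect (8), 1 for permanent-MCAO against anesthesia (2) and 1 for tPA in reperfused-MCAO (3). A spread shared over all arrays gave 1 for tPA in reperfused-MCAO and 2 for tPA without MCAO, and quantile scaling gave 2 for tPA without MCAO and 1 for the averaged tPA effect (0). The cause of these shifts was not tested, apart from the fold threshold, which removes smaller differences by construction. The share of all probe sets called moved as well over the alternatives. It ran from 6.15% to 40.1% for the interaction and 2.59% to 28.1% for tPA without MCAO. For the difference of tPA effects it ran from 0.206% to 1.19%. Shares of single fits, those with the block or without 1 array among them, are not given here. Member counts of such fits cannot be set against the whole array.

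Without 1 array the counts ranged from 4 to 7 for reperfused-MCAO against anesthesia, 1 to 3 for permanent-MCAO against anesthesia, 1 to 3 for tPA in reperfused-MCAO, 1 to 3 for tPA in permanent-MCAO, 0 to 2 for tPA without MCAO, 7 to 9 for the averaged stroke effect, 0 to 1 for the averaged tPA effect and 2 to 4 for the interaction, and stayed at 0 for anesthesia against naive. The 4 calls in reperfused-MCAO against anesthesia held in all 10 alternatives and all 12 fits without 1 array at the unadjusted threshold.

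The labels number the rats 1 to 6 in each group. Correlations between the deviations of rats of the same number lay between -0.38 and 0.36, with at most 3 of 6 over 0.1 in a comparison. That count of 3 was reached in each of the tPA comparisons, and for tPA in reperfused-MCAO the range was -0.03 to 0.35. Whether rats of the same number share something was not tested. With the replicate number as a block, the counts were 4 for reperfused-MCAO against anesthesia, 2 for permanent-MCAO against anesthesia and 2 for tPA in reperfused-MCAO. Tln1 lost its call for tPA in reperfused-MCAO, Actn1 1389189_at lost its call in permanent-MCAO against anesthesia, and no other call of a member was lost. The adjusted p of the 4 probe sets called in reperfused-MCAO against anesthesia was between 0.0554 and 0.126 with the block.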
